A study of Mus musculus with 16 samples.

Results

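Akti1/2-treated and control D10 T cells were compared after 2 h of CD3/CD28 stimulation. The comparison took in 7395 of the 18138 genes on the arrays, namely those above the negative controls on at least 2 of the 16 arrays of the series, and 4 of these arrays, 2 in each group. D10 is a fast-growing variant of a mouse Th2 helper T cell clone, so all cells descend from a single clone, and it was kept in medium with recombinant human interleukin-2. Akti1/2 is an allosteric inhibitor of the kinases Akt1 and Akt2. Treated cells received it at 10 µM for 1 h, and both groups were then stimulated for 2 h with biotinylated antibodies to CD3 and CD28 joined by streptavidin. Control cells were left untreated according to the sample labels, while the study's text speaks of solvent. The labels do not say whether the duplicates were separate cultures, so the p-values measure the spread between duplicate arrays, which may be technical. That spread was pooled over all 16 arrays of the series. In total RNA of a whole culture, fewer expressing cells and less RNA per cell cannot be told apart.

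Akt is activated downstream of phosphoinositide 3-kinase when the T cell receptor and CD28 are engaged. It phosphorylates FOXO transcription factors, which keeps them out of the nucleus, and relieves the brake that the Tsc1-Tsc2 complex puts on the kinase mTOR. It also feeds into NF-kB activation through the Carma1, Bcl10 and Malt1 proteins. Th2 cells answer receptor engagement by making cytokines such as interleukins 4, 5 and 13. The integrated stress response is a separate program in which the transcription factor Atf4 raises genes for amino acid supply together with stress regulators such as Ddit3, also known as CHOP.

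Levels are log2 intensities after background correction and normalization, and a difference is the level with Akti1/2 minus that without it. A gene was called where limma, fitted to all 8 groups of the series, gave an adjusted p (Benjamini-Hochberg) under 0.05. Between the 2 arrays of a group, the correlation over genes was 0.9903 in control and 0.9896 in Akti1/2-treated cells, and the median absolute log2 difference was 0.15 and 0.163. The treated arrays were dimmer before normalization, with mean intensities of 414.2 and 393.8 against 528.8 and 467.1 in control cells, and had more genes above background, 6907 and 6796 against 6630 and 6288. The part of this gap in single results was not tested.

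The arrays bore out the labelled cell type for most markers of T helper cells. Of 15 such markers on the arrays, 14 were tested, and Cd3g, a chain of the T cell receptor complex, stood at 13.32 and 13.27 in control and 13.32 and 13.29 in Akti1/2-treated cells. Cd4 was dim, at 6.05 and 5.61 in control cells and 5.96 and 5.67 in treated cells, and Thy1 was above background on 0 of 16 arrays. Gata3, the lineage factor of Th2 cells, was bright, at 12.69 and 12.58 without and 13.07 and 13.31 with Akti1/2 (difference 0.55 ± 0.12 standard error, adjusted p = 0.00559), a call lost without Akti1/2-treated array 2 or in a fit of these 4 arrays alone. Among markers of other cells, 0 of 7 for B cells passed the filter, 1 of 8 for CD8 and NK cells (Prf1), 2 of 17 for myeloid cells (Cd68 and Mpo), 2 of 6 for red cell precursors (Hba-a1 and Epor) and 2 of 12 for stromal cells (Krt8 and Pecam1). The defining markers Cd8a, Csf1r, Itgam, Hbb-b1 and Col1a1 were above background on 0 of 16 arrays. Mpo, Hba-a1 and Epor were lower with Akti1/2 by log2 differences of -0.56, -0.57 and -0.53. The summed linear level of the tested myeloid markers was 253.1 and 265.3 in control and 171.2 and 172.6 in treated cells, and that of the red cell markers 1691 and 1613 against 1062 and 1167. The part of these markers in other results was not tested.

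Promoter sequence is shown for the members at the extremes of the comparison whose proximal windows held a C/EBP-ATF or NF-kB motif, the motifs whose shares differed most between raised and lowered genes. The sequences are from RefSeq on build GRCm38.p6, and positions count back from the transcription start. An entry was found for 21 of 24 genes, the largest rises and falls among called genes not listed under a clone or predicted-gene name. The C/EBP-ATF response element (TGATGNAA, either strand) is bound by Atf4 together with C/EBP proteins. Chac1 and Atf3, both among the 12 largest rises, held it. In the windows below, the 250 bases upstream of each start are given in the direction of transcription, with the element in capitals, from -193 to -186 in Chac1 (chr2:119350992-119351241, plus strand) and from -110 to -103 in Atf3 (chr1:191183334-191183583, minus strand).
Chac1: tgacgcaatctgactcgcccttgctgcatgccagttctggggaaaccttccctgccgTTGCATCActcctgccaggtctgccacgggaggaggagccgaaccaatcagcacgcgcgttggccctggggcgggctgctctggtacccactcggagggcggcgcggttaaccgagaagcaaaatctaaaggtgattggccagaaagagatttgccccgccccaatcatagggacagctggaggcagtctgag
Atf3: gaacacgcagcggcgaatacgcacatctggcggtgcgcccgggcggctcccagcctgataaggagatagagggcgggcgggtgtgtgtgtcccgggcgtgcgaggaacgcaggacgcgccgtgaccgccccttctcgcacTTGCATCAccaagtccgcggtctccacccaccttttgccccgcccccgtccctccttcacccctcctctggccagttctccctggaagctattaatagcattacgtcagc
Of 118 genes raised beyond a log2 of 1 with a promoter in the table, 8 (6.78%) held the element in this window, against 140 of all 5683 tested genes with a promoter (2.46%) and 1 of 103 genes lowered beyond a log2 of 1 (0.971%).

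Among the 12 largest falls, Hyal2 and Nfkbid held the NF-kB consensus, which was searched by its standard letters on either strand. The stretches of 30 bases below carry it in capitals, at -238 to -229 in Hyal2 (chr9:107568915-107568944) and at -226 to -217 in the second annotated promoter of Nfkbid (chr7:30422170-30422199), both on the plus strand. The same Nfkbid window holds a second match at -181 to -172.
Hyal2: taaaaccagcGGGAATCCCCattccaggag
Nfkbid: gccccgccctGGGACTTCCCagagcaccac
The consensus was present in 18 of 103 genes lowered beyond a log2 of 1 (17.5%), in 5 of 118 raised beyond it (4.24%) and in 308 of all 5683 (5.42%). The FOXO element TGTTTAC was in 4 of 118 raised genes (3.39%), 3 of 103 lowered genes (2.91%) and 140 of 5683 (2.46%), the E-box CACGTG in 12 (10.2%), 13 (12.6%) and 584 (10.3%), the AP-1 element TGANTCA in 8 (6.78%), 8 (7.77%) and 304 (5.35%), and the cAMP response element TGACGTCA in 5 (4.24%), 4 (3.88%) and 183 (3.22%). A match describes letters in a window and is not a binding site.

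At 2 h, 2103 genes (28.4%) differed between the groups, 1004 higher (13.6%) and 1099 lower (14.9%) with Akti1/2, and 2992 had an unadjusted p under 0.05. The median difference over all 7395 genes was -0.00655. Most differences were modest. Among called genes the median absolute log2 difference was 0.628 and the smallest 0.27, 146 rose and 130 fell beyond a log2 of 1, and 10 rose and 11 fell beyond 2. All 2103 had the same sign on both chips, and over all genes the difference on chip 1 correlated with that on chip 2 at 0.691, given as a description. The groups did not overlap for 64.4% of all genes. With arrays scaled to the same mean in place of quantile normalization, 1087 were higher and 1043 lower, and 1749 of these calls were shared with the 2103. The J5 score named in the study's methods has no error term, and the study applied it to each time against 0 h. Taken here between treated and control cells at 2 h, it exceeded 20 for 78 genes that were higher and 21 that were lower. Of these 99, 50 were among the 2103. The count was 1121 in a fit of these 4 arrays alone, and 1219, 1359 and 1167 without control array 1, control array 2 or Akti1/2-treated array 2.

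**Figure D1:**
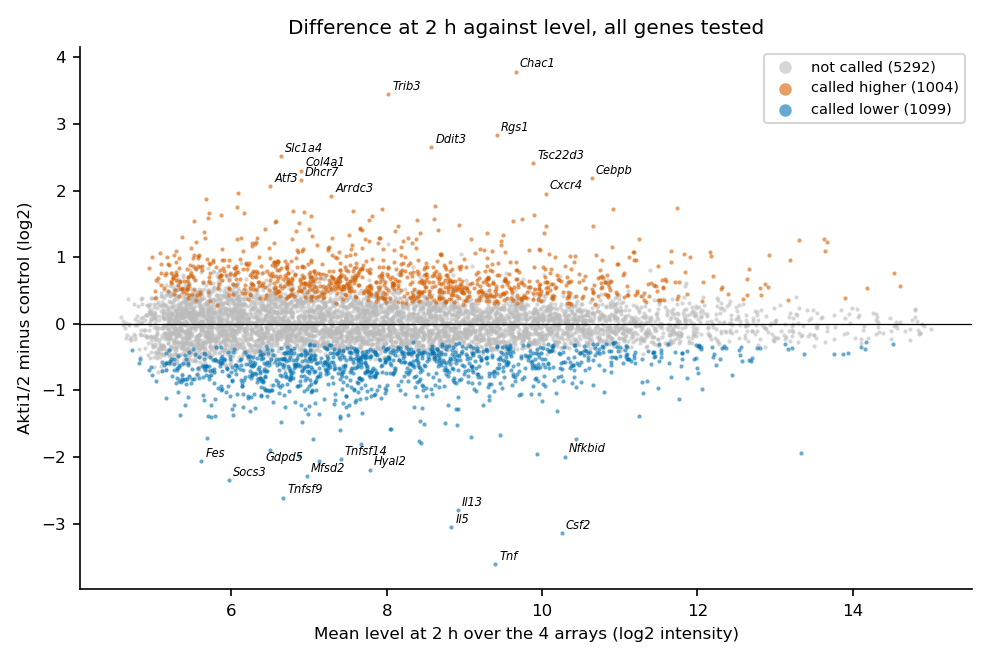
Difference between Akti1/2-treated and control cells at 2 h (vertical axis, log2) against the mean level over the 4 arrays (horizontal axis, log2 intensity), with 1 point for each of 7395 genes, coloured by call. The named genes are the 12 largest rises and the 12 largest falls among genes not listed under a clone or predicted-gene name. Slc38a7, listed as BC031853, rose by 1.967, more than Cxcr4 and Arrdc3, but is not named. The 1004 higher and 1099 lower genes spread over the whole range of levels.

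The largest rise was that of Chac1, an enzyme that degrades glutathione and a target of Atf4 and Ddit3. Its level was 7.95 and 7.58 in control and 11.49 and 11.61 in Akti1/2-treated cells, a difference of 3.78 ± 0.18 (SE, n = 2 and 2, adjusted p = 8.94e-08). Trib3, a pseudokinase that is a target of Ddit3, went from 6.25 and 6.35 to 9.84 and 9.65 (3.45 ± 0.13, adjusted p = 1.72e-08). Ddit3 itself rose from 7.2 and 7.30 to 9.84 and 9.96 (2.65 ± 0.10, adjusted p = 1.72e-08). In each of these genes both treated arrays lay above both control arrays, as they did for 31.1% of all genes tested.

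Rgs1, which shortens signalling from chemokine receptors, stood at 8.00 on both control arrays and at 10.90 and 10.78 with Akti1/2 (2.84 ± 0.13, adjusted p = 5.84e-08). It was already higher before stimulation, by 2.38 (adjusted p = 1.41e-06), and the difference of effects, 2 h minus 0 h, was 0.46 ± 0.18 (adjusted p = 0.13). Tsc22d3, which encodes the glucocorticoid-induced leucine zipper protein, rose from 8.65 and 8.71 to 11 and 11.19 (2.41 ± 0.13, adjusted p = 2.13e-07). Cxcr4, a chemokine receptor that guides T cells to bone marrow and lymphoid tissue, rose from 8.97 and 9.17 to 10.90 and 11.16 (1.96 ± 0.26, adjusted p = 3.13e-04). The other rises included Col4a1, a basement membrane collagen chain, by 2.30 ± 0.11, and Arrdc3, an arrestin-domain protein, by 1.92 ± 0.21.

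Tnf fell most. The gene, which encodes an inflammatory cytokine, was at 11.30 and 11.10 in control and 7.52 and 7.66 in Akti1/2-treated cells, a difference of -3.61 ± 0.24 (adjusted p = 2.2e-06), so the treated level was 8.17% of control. Unstimulated cells had a mean Tnf level of 7.38 without and 6.33 with Akti1/2, a difference that was not called. Csf2, which encodes GM-CSF, a growth factor for myeloid cells, stood at 11.91 and 11.74 against 8.48 and 8.88 (-3.14 ± 0.20, adjusted p = 1.84e-06). Outside the cytokines, Socs3, an inhibitor of cytokine receptor signalling, was at 7.32 and 6.96 in control cells and not above background on either treated array (4.75 and 4.85), at least 3.22-fold lower (adjusted p = 4.84e-05). Fes, a non-receptor tyrosine kinase, was likewise at 6.86 and 6.42 and then not above background, at least 2.27-fold lower (adjusted p = 9.36e-05).

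Hyal2, a cell surface hyaluronidase, fell from 8.93 and 8.82 to 6.72 and 6.66 (-2.19 ± 0.13, adjusted p = 7.08e-07). Nfkbid, an atypical inhibitor of NF-kB in the nucleus, fell from 11.48 and 11.10 to 9.52 and 9.07 (-1.99 ± 0.16, adjusted p = 8.94e-06). Mfsd2, now named Mfsd2a and a transporter of lysophospholipids, differed by -2.29 ± 0.18, and Gdpd5, a glycerophosphodiester phosphodiesterase, by -2.06 ± 0.17. The 24 genes at the extremes were chosen as the largest called differences on these arrays, so their calls under the alternatives, all kept, are no separate support.

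**Figure D2:**
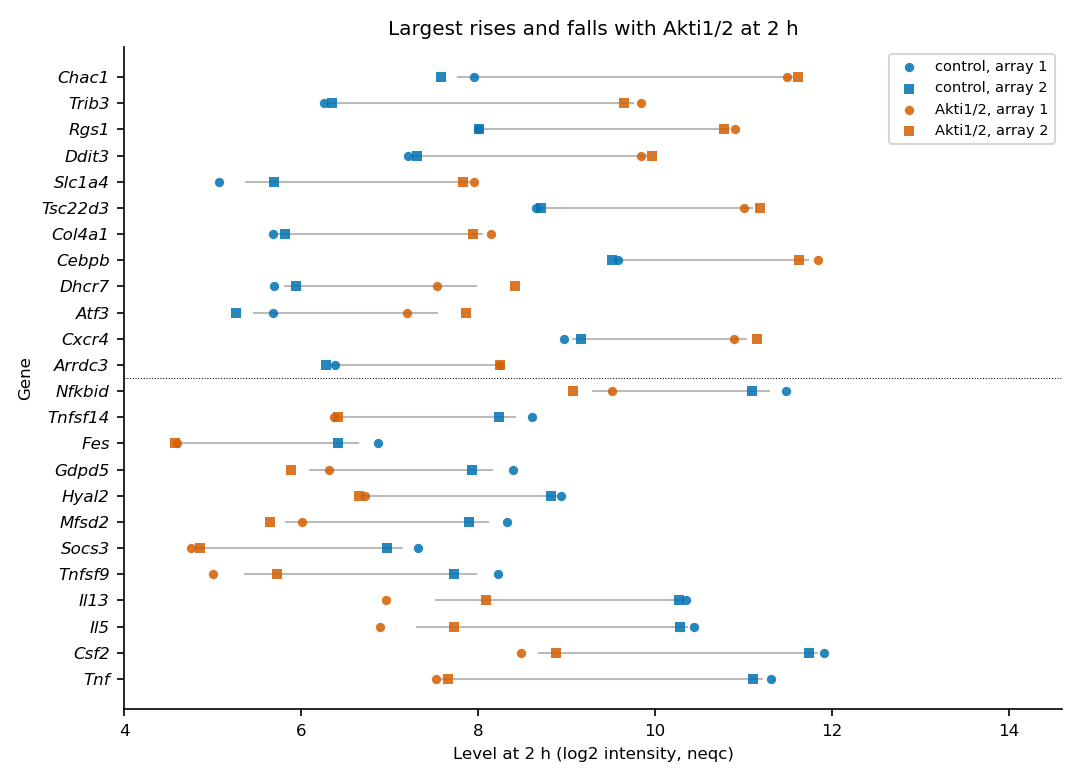
Level on each of the 4 arrays at 2 h (horizontal axis, log2 intensity) for 12 rises (top) and 12 falls (bottom), with control arrays in blue, Akti1/2-treated arrays in orange and a grey line between the group means. These rises and falls are the largest among genes not listed under a clone or predicted-gene name. The groups do not overlap in any of the 24 genes, which were chosen for large differences, nor in 64.4% of all genes tested. The treated arrays of Il13 (6.96 and 8.08), Il5 and Dhcr7 lie further apart than those of the other genes.

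Targets of Atf4 and the integrated stress response rose together. Of 28 tested, 23 were higher and 1 lower with Akti1/2, with a median difference of 1.14, or 1.10 when genes below background in a group are set at their bound. Over all 7395 genes, 13.6% were higher and 14.9% lower, the shares beside which this and the following list counts stand. In the transcription factor tier, Atf4 itself was at 10.60 and 10.62 without and 12.03 and 11.74 with Akti1/2 (1.27 ± 0.12, adjusted p = 2.8e-05). Cebpb, its partner in DNA binding, went from 9.58 and 9.51 to 11.84 and 11.62 (2.19 ± 0.12, adjusted p = 2.13e-07). Atf3, a repressor induced by stress, went from 5.68 and 5.26 to 7.2 and 7.87 (2.06 ± 0.26, adjusted p = 2.28e-04). Atf5 did not pass the test, and its treated arrays disagreed, at 6.6 and 5.17 against 6.33 and 6.45 in control cells.

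The feedback members of the same list were also higher. Myd116, now named Ppp1r15a, recruits the phosphatase that ends the translational block of the response, and it rose by 1.58 ± 0.18 (adjusted p = 1.1e-04). Sesn2, an inhibitor of mTOR complex 1, rose by 1.42 ± 0.22, and Herpud1, a component of the degradation machinery of the endoplasmic reticulum, by 1.74 ± 0.12. Enzymes of amino acid and one-carbon synthesis rose as well, with Aldh18a1 of proline synthesis at 1.54 ± 0.16, Mthfd2 at 1.08 ± 0.13, Asns at 0.59 ± 0.10, Shmt2 at 0.59 ± 0.14, Psat1 at 0.43 ± 0.11 and Phgdh at 0.42 ± 0.10. The exception that was lower was Tubb6, a tubulin, at -0.67 ± 0.16 (adjusted p = 0.00892), and Vegfa (-0.04), Slc1a5 (-0.08) and Ddit4 (0.40, adjusted p = 0.104) did not pass. Of the 23 members that rose at 2 h, 2 were already called higher at 0 h, 22 were also called higher at 6 h and 23 at 12 h. Over all 7395 genes, 0.0541% were called in either direction at 0 h, 37.5% at 6 h and 49% at 12 h. For 19 of the 23 the effect at 2 h differed from that at 0 h. The count of higher members ranged from 18 to 24 under the alternatives.

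Amino acid transporters overlapped with that list through Slc3a2, Slc38a2 and Slc1a5. Of 11 tested, 5 rose and 2 fell (median 0.125). Slc1a4, which carries neutral amino acids such as serine and alanine, was not above background in control cells (5.07 and 5.69) and stood at 7.95 and 7.83 with Akti1/2, at least 4.63-fold higher (adjusted p = 5.94e-06). Slc38a7, listed as BC031853, was at least 2.61-fold higher (5.08 and 5.11 against 6.93 and 7.19), and Slc3a2, the heavy chain of the large neutral amino acid transporters, at least 2.0-fold (4.99 and 5.11 against 6.63 and 6.74). Slc38a2 rose from 9.43 and 9.39 to 10.33 and 10.71, and the glycine carrier Slc6a9 from 7.07 and 7.06 to 8.07 and 8.17. Slc38a10 (-0.99) and the taurine carrier Slc6a6 (-0.59) fell. Only 2 were counted higher when the test was limited to genes above background on all 16 arrays.

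Among 21 aminoacyl-tRNA synthetases and their scaffold proteins, which charge tRNAs with amino acids, 7 rose and 1 fell, with a median of 0.231. Eprs had the largest rise, from 8.37 and 8.21 to 8.94 and 9.42 (0.88 ± 0.20, adjusted p = 0.00717), followed by Lars (0.59 ± 0.11), Nars (0.52 ± 0.13), Scye1, now Aimp1 (0.49 ± 0.12), and Aars (0.47 ± 0.12). Lars stayed called under all 11 alternatives. Without Akti1/2-treated array 1, 2 members were higher, and the call of Eprs was lost without Akti1/2-treated array 2 (highest adjusted p 0.0738).

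Cytokine genes moved the other way. Of 22 tested, 15 were lower and 1 higher, with a median of -1.29, or -1.18 with dim genes at their bound, and 12 of the 15 fell beyond a log2 of 1. Besides Tnf and Csf2, the type 2 cytokine Il5, a growth factor for eosinophils, fell from 10.43 and 10.28 to 6.89 and 7.73 (-3.05 ± 0.26, adjusted p = 1.39e-05). Il13, which acts on airway epithelium, fell from 10.35 and 10.27 to 6.96 and 8.08 (-2.79 ± 0.43, adjusted p = 8.58e-04). Il4, encoded in the same gene cluster as Il5 and Il13, stood at 11.45 and 11.24 in control cells and 11.84 and 11.51 in treated cells. Its difference of 0.33 did not pass the test (adjusted p = 0.0964, 95% interval 0.03 to 0.63).

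Within the TNF superfamily, Tnfsf9, the ligand of the costimulatory receptor Tnfrsf9, fell from 8.22 and 7.72 to 5 and 5.72 (-2.61 ± 0.23, adjusted p = 2.11e-05). Tnfsf14, also called LIGHT, fell from 8.60 and 8.24 to 6.37 and 6.42 (-2.03 ± 0.16, adjusted p = 6.86e-06). Tnfsf11, the osteoclast factor RANKL, fell by 1.67 ± 0.15 on the log2 scale, Ltb by 1.30 ± 0.15, and Lta was not above background in treated cells, at least 2.13-fold lower (adjusted p = 9.9e-05). Tnfsf10, known as TRAIL, was the exception, with a difference of -0.61 that did not pass.

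Il16, made as a precursor whose carboxy-terminal part attracts CD4+ cells, was the member that rose, from 6.83 and 7.17 to 8.48 and 8.75 (1.61 ± 0.23, adjusted p = 5.09e-04). Il10 (-0.50, adjusted p = 0.1), Csf1 (-0.26) and Tgfb1 (0.00) did not pass. All 15 cytokine genes that fell at 2 h were also called lower at 6 h, 14 were at 12 h and 0 at 0 h, while Ltb was higher at 12 h (0.52, adjusted p = 0.0129). Over all genes, 37.5% were called in either direction at 6 h, 49% at 12 h and 0.0541% at 0 h. Differences at 0 h that were not called included those of Tnf (-1.06) and Csf2 (-0.85), with a list median of -0.123. For 10 of the 15 the effect at 2 h differed from that at 0 h. With only genes above background on all 16 arrays, 8 were lower, which leaves out genes near background with Akti1/2.

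**Figure D3:**
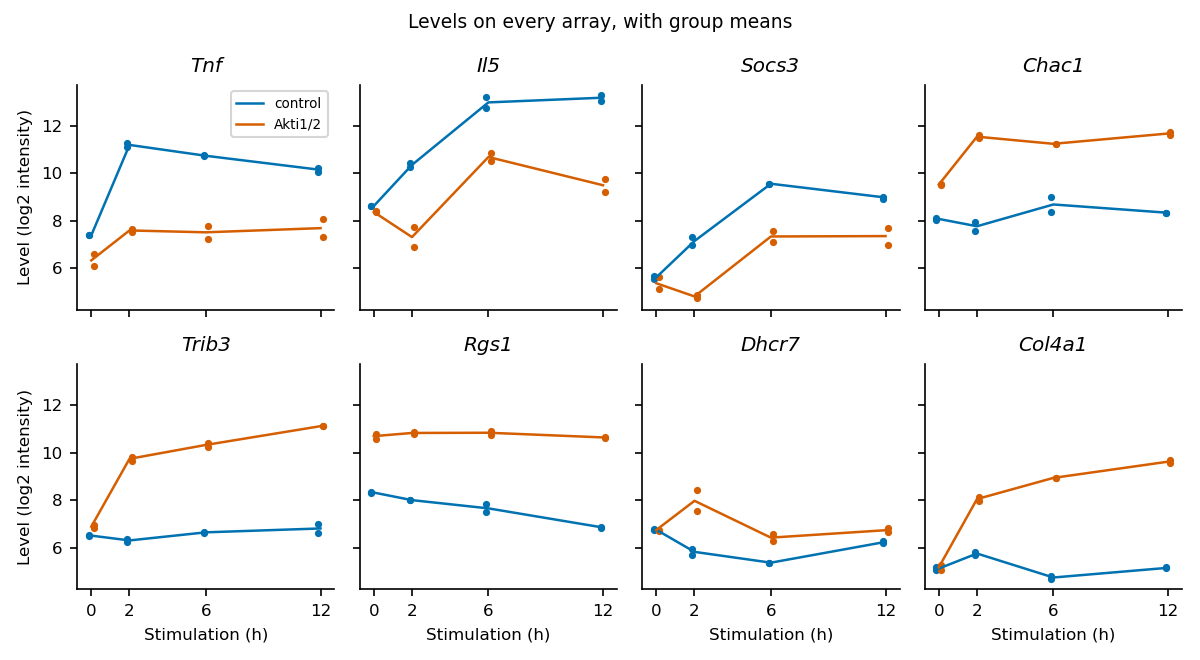
Level on every array (points, log2 intensity) and group means (lines) at 0, 2, 6 and 12 h of stimulation in control (blue) and Akti1/2-treated cells (orange), for 8 of the 24 genes at the extremes. Tnf lies further apart at 2 h than at 0 h, where its groups already do not overlap. Rgs1 is apart at all 4 times, and the curves of Dhcr7 lie furthest apart at 2 h.

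Chemokines were lower or did not pass. Of 8 tested, 5 fell and 0 rose (median -0.575). Ccl1, a ligand of the Th2 receptor Ccr8, was at 12.31 and 12.35 in control and 11.03 and 11.38 in Akti1/2-treated cells (-1.12 ± 0.18, adjusted p = 9.59e-04), and Cxcl10, a ligand of Cxcr3, at 7.60 and 7.41 against 6.17 and 6.40 (-1.22 ± 0.19, adjusted p = 9.86e-04). The inflammatory chemokines Ccl4 and Ccl3 differed by -0.76 ± 0.14 and -0.45 ± 0.12. Cxcl2 (-0.70, adjusted p = 0.0377) lost its call under 6 of 10 alternatives and Ccl3 under 3 of 11. Without control array 1 or Akti1/2-treated array 1, 3 chemokines were lower. Xcl1, Ccl5 and Ccl17 did not pass.

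Immediate early genes split. Of 16 tested, 6 fell and 3 rose. Ier3, a survival regulator induced within minutes of stimulation, was among the brightest genes of the comparison and fell from 14.45 and 14.14 to 12.21 and 12.52 (-1.93 ± 0.18, adjusted p = 3.17e-05). Jun, a subunit of the AP-1 factor, was at 6.77 on both control arrays and at 5.62 and 5.70 with Akti1/2 (-1.11 ± 0.18, adjusted p = 0.00116), and Egr2 differed by -1.01 ± 0.21. Fos, which pairs with Jun, went the other way, from 6.57 and 7.12 to 7.94 and 7.90 (1.07 ± 0.31, adjusted p = 0.0225). The call of Fos was lost without control array 1 or either treated array. Id3, an inhibitor of helix-loop-helix factors, rose by 1.15 ± 0.20, while its relative Id2 fell by 0.82 ± 0.26. Egr1 (-0.25), Junb (-0.12) and Myc (-0.15) did not pass.

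A list of feedback regulators of signalling, whose entries include Gadd45 and Pim genes beside inhibitors, also went both ways, with 11 of 25 lower and 6 higher. Gadd45g and Gadd45b, stress sensors that bind the kinase Map3k4, fell, the first from 9.32 and 9.35 to 7.63 and 7.46 (-1.79 ± 0.14, adjusted p = 6.27e-06) and the second by 1.10 ± 0.21. The MAP kinase phosphatases diverged. Dusp2 fell from 9.93 and 9.85 to 8.68 and 8.81 (-1.15 ± 0.12, adjusted p = 5.87e-05) and was already lower at 0 h, by -1.08 (adjusted p = 0.00191), while Dusp1 rose by 0.93 ± 0.18. In the SOCS family, Socs3 and Cish (-0.96) were lower and Socs2 was higher, at 11.64 and 11.70 against 12.65 and 12.72. Without control array 1 or treated array 1, 7 feedback genes were lower.

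NF-kB subunits and targets held 10 lower and 4 higher of 31, where 14.9% of all genes were lower and 13.6% higher. The median was -0.0925. None of Rela (-0.34), Rel (-0.04) and Nfkb1 (0.18) passed the test, while Nfkb2, encoding the p100 precursor, differed by -0.92 ± 0.28 (adjusted p = 0.0278). The inhibitors Nfkbid, Nfkbie (-1.19 ± 0.24) and Nfkbia (-0.62 ± 0.17) were lower, as was the adhesion molecule Icam1, at 10.92 and 10.50 against 9.64 and 9.68 (-1.05 ± 0.13, adjusted p = 2.13e-04). Tnfaip3, the A20 deubiquitinase that ends NF-kB signalling, was higher, at 9.66 on both control arrays and 10.83 and 10.51 with Akti1/2 (1.01 ± 0.21, adjusted p = 0.0046). Its effect at 0 h had a similar size, 1.0, without passing the test (adjusted p = 0.333). In a fit of these 4 arrays alone, 5 members were lower, and Nfkbie lost its call there (adjusted p = 0.0519).

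**Figure D4:**
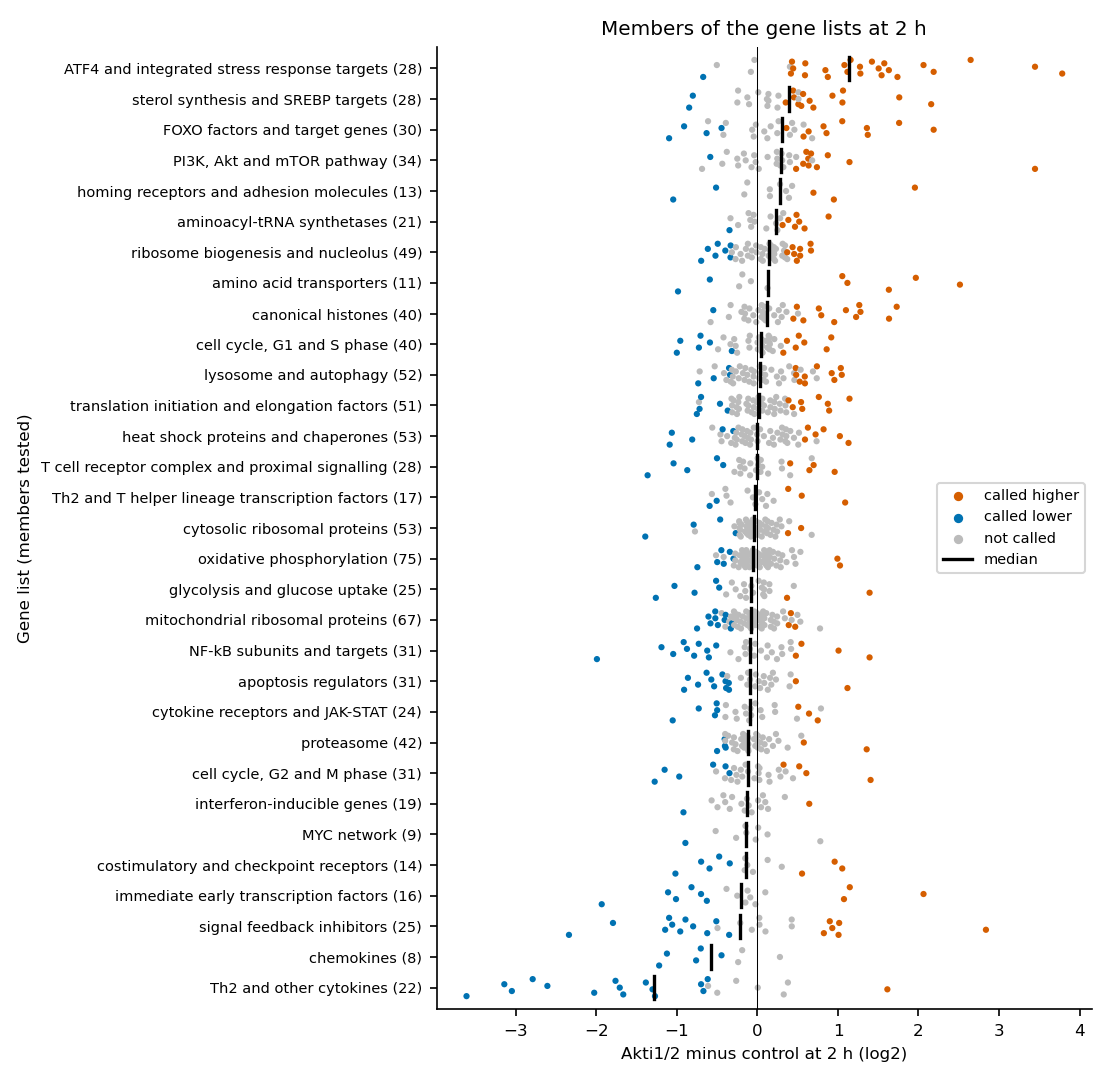
Log2 difference at 2 h (horizontal axis) of each tested member of 31 gene lists (rows, with the number of members tested), as orange points where called higher, blue where called lower and grey where not called, and black bars for the medians. The ATF4 list has the highest median, 1.14, and the cytokines the lowest, -1.29, while those of the mitochondrial ribosomal protein (-0.0788) and oxidative phosphorylation lists (-0.0511) lie close to 0.

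FOXO factors and their known or suspected targets showed 10 higher and 4 lower members of 30, with a median of 0.311, or 0.254 with dim genes at their bound. The study had already named Klf6, Ctla4, Cebpb and Gadd45 as higher with Akti1/2 from these same arrays. Their part in the count is therefore no separate support. Klf6, a zinc finger factor, rose from 9.50 and 9.20 to 10.65 and 10.77 (1.36 ± 0.17, adjusted p = 2.36e-04). Pik3ip1, an inhibitor of phosphoinositide 3-kinase, went from 5.63 and 4.75 to 6.81 and 7.08 (1.76 ± 0.25, adjusted p = 5.27e-04), and the ubiquitin ligase Fbxo32 was at least 1.57-fold higher, at 5 and 4.93 against 6.36 and 6.31. Ctla4, a checkpoint receptor, rose from 9.35 and 9.77 to 10.64 and 10.59. Foxo1 itself rose by 0.64 ± 0.15 (adjusted p = 0.00991), and Foxp1 by 0.82 ± 0.21.

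Members that fell were Gadd45b, the cell cycle inhibitor Cdkn1a (-0.91 ± 0.16, adjusted p = 0.00189), Txnip (-0.63 ± 0.21, adjusted p = 0.0379) and Sesn1 (-0.45). Among the pro-apoptotic targets, Bcl2l11 (0.08) and Bbc3 (-0.02) did not pass, nor did Bcl6 (0.12) or Ccng2 (0.16). Of the 10 that rose, 7 were also higher at 6 h, 8 at 12 h and 0 at 0 h. The shares of all genes called in either direction were 37.5%, 49% and 0.0541%.

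The kinases the inhibitor targets were not measurable. Akt1 and Akt2 were above background on 0 of 16 arrays, with intensities of 152.4 and 143.7 and of 145.9 and 142.9 in control cells. Of 34 tested genes of the PI3K, Akt and mTOR pathway, 10 rose and 1 fell (median 0.291), or 5 rose without either of the treated arrays. The largest rises after Trib3 were Eif4ebp2 (from 7.82 and 7.78 to 9.07 and 8.82) and Eif4ebp1 (from 11.11 and 11 to 11.88 and 11.98), whose products hold back cap-dependent translation when mTOR is off. Ulk1, which starts autophagy, rose by 0.74 ± 0.19 and the catalytic subunit gene Pik3cd by 0.67 ± 0.16, both with calls lost without control array 2 or treated array 2, and for Ulk1 also in a fit of these 4 arrays alone. Rheb and Tsc1, which act in opposite directions on mTOR, rose by 0.61 ± 0.18 and 0.63 ± 0.19. Rps6ka1 fell by 0.59 ± 0.16.

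Of 28 sterol synthesis genes and other targets of the SREBP factors, 13 rose, 2 fell and 13 did not pass, with a median of 0.397, or 0.300 with dim genes at their bound. Dhcr7, the last enzyme of cholesterol synthesis, had the largest difference, from 5.70 and 5.94 to 7.53 and 8.41 (2.16 ± 0.21, adjusted p = 4.81e-05). Sc4mol, now named Msmo1, a sterol oxidase, rose from 7.73 and 7.75 to 9.62 and 9.38 (1.76 ± 0.24, adjusted p = 4.15e-04), Mvd from 8.58 and 8.64 to 9.57 and 9.76 and Lss from 9.20 and 9.04 to 10.13 and 9.98. Sqle (0.69), Cyp51 (0.57) and the feedback regulator Insig1 (0.54) rose as well. The members that fell were Scap, which escorts SREBP to the Golgi (-0.85 ± 0.17, adjusted p = 0.0041), and the fatty acid elongase Elovl6 (-0.80). All 13 that rose were also higher at 6 h, 9 were at 12 h and 0 at 0 h, where 37.5%, 49% and 0.0541% of all genes were called in either direction.

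**Figure D5:**
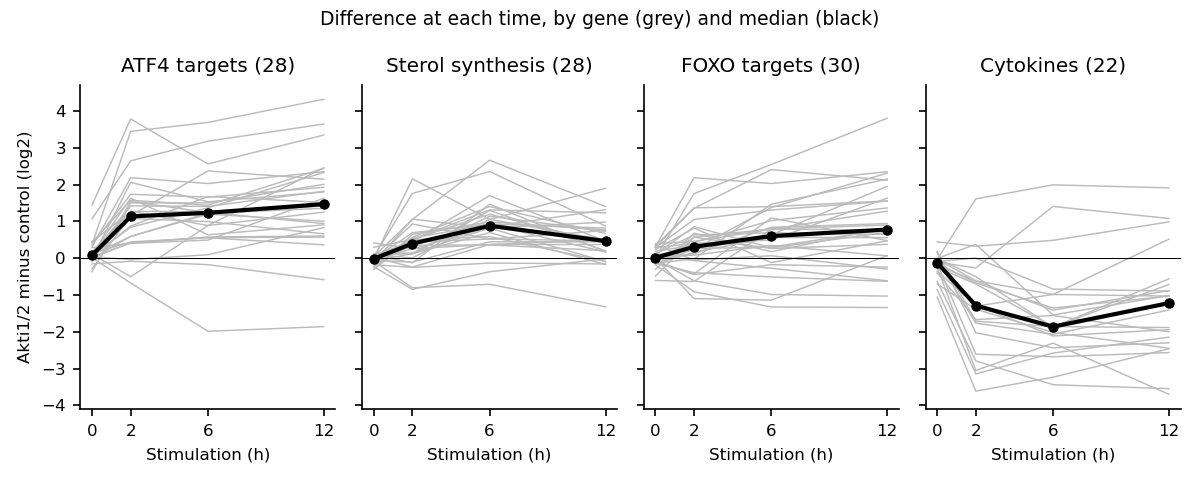
Difference between Akti1/2-treated and control cells (vertical axis, log2) at 0, 2, 6 and 12 h of stimulation (horizontal axis) for each tested member (grey lines) and the median (black) of 4 gene lists. The medians at 0 and 2 h are 0.0832 and 1.14 for ATF4 targets, -0.0148 and 0.397 for sterol synthesis, 0.0124 and 0.311 for FOXO targets and -0.123 and -1.29 for cytokines.

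Canonical histone genes differed by type. Of 40 tested, 12 rose and 1 fell, and the H2A genes made up 9 of the 12, out of 12 H2A genes tested, with a median of 1.03. By contrast, 2 of 11 H2B genes rose (median 0.0858), 0 of 10 H4 genes rose or fell (median 0.122), and of 6 H3 genes 0 rose and 1 fell, Hist1h3g (-0.55, adjusted p = 0.049). Hist1h2ag was at 9.98 and 10.11 in control and 11.76 and 11.79 in Akti1/2-treated cells (1.73 ± 0.18, adjusted p = 5.87e-05), and Hist2h2ab at 8.92 and 9.22 against 10.68 and 10.74. The H2A copies are nearly identical in sequence and their probes may read the same transcripts, so the 9 are not separate observations. Hist1h2ab (-0.20) and Hist1h2ae (-0.33) did not pass. Unstimulated control cells had a level of 11.30 for Hist1h2ag, close to the treated level at 2 h.

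Genes of the T cell receptor complex and its first kinases gave 4 higher and 5 lower of 28 (median -0.00748). These counts are near the shares over all genes (13.6% higher and 14.9% lower). Csk, the kinase that keeps Lck inactive, fell from 11.78 and 11.85 to 10.80 and 10.75 (-1.04 ± 0.12, adjusted p = 1.15e-04), Cd3e from 11.69 and 11.76 to 10.92 and 10.78 (-0.87 ± 0.11, adjusted p = 1.92e-04) and the kinase Tec from 6.70 and 6.71 to 5.71 and 4.97. Cd28, the receptor that was engaged here beside CD3, rose from 10.40 and 10.19 to 11.27 and 11.24 (0.96 ± 0.16, adjusted p = 0.00115). The calcium sensor Stim1 rose by 0.70 ± 0.14. Lck (-0.09), Zap70 (-0.16) and Lat (-0.18) did not pass.

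Of 14 costimulatory and checkpoint receptors, 3 rose and 5 fell. Cd160 was at 7.39 and 7.68 in control and 6.42 and 6.62 in Akti1/2-treated cells, and Icos at 10.98 and 10.83 against 10.04 and 10.38 (-0.70 ± 0.23, adjusted p = 0.0393), a call lost under 5 of 11 alternatives. Without control array 2, 1 member was lower and the calls of Cd160, Icos and Btla were lost. Among homing receptors and adhesion molecules, 3 of 13 rose and 2 fell. The sphingosine phosphate receptor S1pr4 was at 6.13 and 6.32 against 7.18 and 7.16 (0.95 ± 0.15, adjusted p = 9.72e-04).

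Among T helper lineage factors, 3 of 17 rose and 2 fell. Satb1, an organizer of chromatin at the Th2 cytokine cluster, rose from 11.11 and 11.12 to 12.14 and 12.27 (1.09 ± 0.10, adjusted p = 3.24e-05). Gfi1, a repressor that favours Th2 growth, fell from 10.89 and 10.59 to 10.12 and 10.17 (-0.59 ± 0.12, adjusted p = 0.0041), and was higher at 6 h (0.68, adjusted p = 9.35e-04). The 2 h call of Gfi1 was lost in a fit of these 4 arrays alone (adjusted p = 0.0533). Of 24 cytokine receptor and JAK-STAT genes, 5 fell and 3 rose. Il10ra was at 6.87 and 6.76 against 5.74 and 5.78 (-1.05 ± 0.23, adjusted p = 0.0057), and the interferon gamma receptor chain Ifngr1 at 8.73 and 8.81 against 9.53 and 9.51 (0.75 ± 0.13, adjusted p = 0.00193). Il2ra, the alpha chain of the interleukin-2 receptor, differed by -0.73 ± 0.22 (adjusted p = 0.0292), a call lost when any 1 of the 4 arrays was left out. Without control array 1 or treated array 2, 1 member was lower.

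Among 31 apoptosis regulators, 11 fell and 2 rose (median -0.0925). Mcl1, an inhibitor of cell death, fell from 10.43 and 10.33 to 9.37 and 9.66 (-0.86 ± 0.16, adjusted p = 0.002), and so did the death receptor Fas, from 7.96 and 7.91 to 7.12 and 7.27 (-0.74 ± 0.15, adjusted p = 0.00376). Bak1, a killer protein of the Bcl2 family, was at least 1.69-fold higher with Akti1/2, at 5.49 and 5.15 against 6.06 and 6.82, and Birc2, an inhibitor of apoptosis, rose by 0.48. In a fit of these 4 arrays alone, or without control array 1, 3 members were lower, and the call of Bak1 was lost in the former (adjusted p = 0.0514).

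Growth and housekeeping lists held called genes near or below the shares over all genes (13.6% higher and 14.9% lower). Of 53 cytosolic ribosomal protein genes, 2 rose and 4 fell (median -0.0456), and the largest differences were Rps15a, not above background in treated cells and at least 1.97-fold lower, and Rps27a, from 10.85 and 10.78 to 10.03 and 10.01. Of 67 mitochondrial ribosomal protein genes, 3 rose and 10 fell, of 75 oxidative phosphorylation genes 2 and 6, of 42 proteasome genes 2 and 4, and of 53 chaperones 6 and 5. Psmd1, a subunit of the proteasome's regulatory particle, rose from 8.62 and 8.60 to 9.95 and 9.98 (1.36 ± 0.18, adjusted p = 3.72e-04), and the endoplasmic reticulum chaperone Calr rose from 9.91 and 9.78 to 10.59 and 11.15. With arrays scaled to the same mean, 16 mitochondrial ribosomal and 9 proteasome genes were lower, and without control array 2, 0 proteasome genes were.

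For ribosome assembly, 8 of 49 genes rose and 7 fell, counts that went down to 2 and 1 when single arrays were left out. Polr1e, a subunit of RNA polymerase I, fell from 9.19 and 9.37 to 8.61 and 8.72 (-0.62 ± 0.12, adjusted p = 0.0024), while Nol5, now Nop58, rose by 0.67 ± 0.22. In the MYC network 1 of 9 genes fell and 0 rose. That gene was Zbtb17, also known as Miz1, at 9.46 and 9.21 against 8.56 and 8.33 (-0.89 ± 0.19, adjusted p = 0.00515). Myc was at 6.58 and 6.27 in control and 6.29 and 6.25 in treated cells. Of 51 translation factor genes, taken by symbol, 8 rose and 5 fell, and the 2 largest rises, Eif4ebp2 and Eif2s3x (0.89 ± 0.16), are an inhibitor and a subunit of the initiation machinery.

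Glycolysis and glucose uptake genes gave 5 lower and 2 higher of 25, a share called near the 28.4% over all genes. The glucose transporter Slc2a3 fell from 11.39 and 11.24 to 10.36 and 10.21 (-1.03 ± 0.13, adjusted p = 2.11e-04), and Slc2a1 by 0.51 ± 0.14, the latter with a call lost when any 1 of the 4 arrays was left out. Eno2, an isoform of enolase, fell from 9.25 and 8.94 to 7.88 and 7.78. Hif1a, the oxygen-regulated factor that raises glycolytic genes, was higher, from 7.48 and 7.34 to 8.73 and 8.87 (1.39 ± 0.16, adjusted p = 1.4e-04). Without control array 1, control array 2 or treated array 2, 3 glycolysis genes were lower.

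Cell cycle genes were split as well, with shares near those over all genes (13.6% higher and 14.9% lower). In G1 and S phase 7 of 40 rose and 6 fell, and in G2 and M phase 4 of 31 rose and 6 fell. Rrm2, a subunit of ribonucleotide reductase, fell from 8.79 and 8.55 to 7.70 and 7.64 (-1.0 ± 0.10, adjusted p = 6.08e-05), and Ccne2, a cyclin of the G1 to S transition, from 8.52 and 8.40 to 7.69 and 7.32. Plk1, a mitotic kinase, fell from 10.61 and 10.55 to 9.69 and 9.17 (-1.15 ± 0.16, adjusted p = 4.44e-04), whereas Ndc80 of the kinetochore rose from 8.03 and 7.88 to 9.44 and 9.29 (1.41 ± 0.13, adjusted p = 3.17e-05). Among 52 genes of lysosomes and autophagy, 10 rose and 4 fell, or 5 rose without treated array 2. Gabarap, which coats autophagosomes, rose from 11.27 and 11.34 to 12.31 and 12.39 (1.05 ± 0.21, adjusted p = 0.00403), and Fnip1, a regulator of the lysosomal mTOR switch, from 8.16 and 8.20 to 9.27 and 9.17. Of 19 interferon-inducible genes, 1 rose and 1 fell.

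To see which differences at 2 h went beyond those at 0 h, the effect at 2 h was compared with that at 0 h in the same fit. Cells at 2 h were also 2 h further from the addition of Akti1/2, so that time and the stimulation cannot be told apart. The 2 effects differed in 622 genes (8.41%), 314 upwards (4.25%) and 308 downwards (4.16%), and 1949 had an unadjusted p under 0.05. At 0 h, 4 genes differed between the groups. The median effect of the genes called higher at 2 h was 0.64 at 2 h and 0.0344 at 0 h, and that of the genes called lower was -0.616 and -0.056. Of the genes named, Trib3 had the largest upward difference of effects, 3.07 ± 0.18 (adjusted p = 5.68e-06), with an effect of 0.38 at 0 h. The largest downward one was that of Il5, -2.80 ± 0.36 (adjusted p = 0.00147), with -0.25 at 0 h. Leaving out Akti1/2-treated array 1 at 2 h gave 632 genes, and leaving out each of the other 7 arrays of both time points gave 186 to 348. With arrays scaled to the same mean, 390 were upwards and 213 downwards.

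The later differences were measured on other arrays. Of the 1004 genes higher with Akti1/2 at 2 h, 536 were also called higher at 6 h and 33 lower, and of the 1099 lower genes 545 were also lower and 39 higher. At 12 h, 504 and 523 had the same direction and 91 and 115 the opposite. Genes called in either direction at 2 h and called at 6 h made up 54.8% of the 2 h calls and 41.5% of the 6 h calls, where 37.5% of all genes were called at 6 h and 28.4% at 2 h. For 12 h the shares were 58.6% and 34.1%, where 49% of all genes were called at 12 h.

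The size of the effect changed between 2 and 6 h in 887 genes (12%), 388 upwards (5.25%) and 499 downwards (6.75%), and between 2 and 12 h in 2320 genes (31.4%), 1139 upwards (15.4%) and 1181 downwards (16%). Col4a1 and Hbp1, a transcriptional repressor, were raised less at 2 h than at 6 h. Hbp1 was at 7.42 and 7.4 in control and 8.94 and 8.80 in treated cells at 2 h, an effect of 1.46, against 3.79 at 6 h (difference of effects -2.33 ± 0.16, adjusted p = 2.93e-05). Diap1, now Diaph1, a formin that builds actin filaments, rose at 2 h by 1.22 and was lower at 6 h by -0.78. The chaperonin subunit Cct5 likewise rose at 2 h (1.13, adjusted p = 0.0318) and was lower at 12 h (-1.07, adjusted p = 0.0246), although its 2 h call was lost under 5 of 11 alternatives. Ypel3, a growth suppressor, had an effect of 0.65 at 2 h, a call lost without control array 1 (adjusted p = 0.068), and of 3.44 at 12 h (difference of effects -2.79 ± 0.21, adjusted p = 1.36e-05). In a fit of only the arrays at 2 and 6 h, 223 effects differed, and without control array 1 or treated array 2 at 2 h, or control array 1 or 2 at 6 h, 532, 516, 528 and 549 did. With arrays scaled to the same mean, 283 were upwards and 626 downwards.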

How the data were processed

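Total RNA of 16 samples was labelled as biotinylated cRNA and hybridised to Illumina MouseRefSeq8 beadchips, 8 arrays on each of 2 chips. The authors deposited linear bead intensities, neither normalized nor background-subtracted per the file headers, with 18138 gene rows and 832 control rows. A separate table of control probes that held 15 arrays was not used, and 0 per-sample columns were left out. RefSeq's gene table held the Entrez ID of 16590 rows and matched 610 by symbol only.

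The neqc function (offset 16) corrected intensities for background from 798 negative controls, then quantile-normalized them and took log2. Genes detected at p under 0.01 on 2 or more arrays were fitted with limma 3.58.1 in R 4.3.3 on 8 group means, and p-values were adjusted over all 7395 genes by the Benjamini-Hochberg method. The study's methods name a J5 score without an error term, which was run as an alternative. A gene whose arrays in a group were both at background has only a bound there, computed against the lowest signal among genes above background or its own signal, whichever was higher.

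The genes named were the 12 largest called rises and falls, up to 5 called members of each list with the largest differences, and 3 per direction for each difference of effects. Genes listed under a clone or predicted-gene name were left out of the first and last of these. Others in the text were chosen after their values were seen, and the members and lists were chosen with earlier results of these data known. The number of arrays limits the precision. On simulated data of 8280 genes, the comparison at 2 h recovered 24% of planted log2 differences of 0.5, 92% of 1 and 100% of 2, with 7 other calls. The main fit did not pair the arrays by replicate number or chip. The differences between the arrays of a group correlated between groups at -0.296 to 0.264 over 28 pairs of groups, and at 0.0282 for the groups at 2 h. By chip, the median correlation was 0.0272 and 8 pairs exceeded 0.1, so a weak shared chip effect in some groups is possible. Alternatives were another normalization, background correction or filter, a replicate or chip block, a fit of only the arrays compared, and leaving out each array. Promoters were searched with Python 3.11.15. Some genes are not reported here.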

Additional observations from a re-analysis of the deposited data

Results flagged for a closer look

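The effect of Akti1/2 at 2 h differed from that at 0 h in 622 genes, from that at 6 h in 887 and from that at 12 h in 2320, each by a limma test of the difference between the effects with Benjamini-Hochberg adjustment. For each time, 3 genes in each direction are given here as the effect at 2 h minus that at the other time, on the log2 scale. They had the largest called differences among genes above background on both arrays of a 2 h group. Genes listed under a clone or predicted-gene name were left out.

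Against 0 h, the difference was 3.07 for Trib3, 2.58 for Slc1a4 and 2.34 for Chac1, and -2.80 for Il5, -2.56 for Tnf and -2.47 for Tnfsf9. Chac1 already had an effect of 1.45 at 0 h and Tnf one of -1.06.

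Against 6 h, the difference was 2.04 for Stra6, a retinol transporter, 1.99 for Diap1 and 1.92 for Il33, and -2.33 for Hbp1, -1.97 for Fbxo33 and -1.91 for Col4a1. Il33 was not called at 2 h (0.38, adjusted p = 0.11). Fbxo33, a ubiquitin ligase component, had an effect of -1.25 at 2 h and 0.72 at 6 h.

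Against 12 h, the difference was 2.37 for Stra6, 2.24 for the carbonic anhydrase Car12 and 2.20 for Cct5, and -3.19 for Abtb1, -2.96 for Atf5 and -2.79 for Ypel3. Stra6, Car12, Atf5 and Abtb1 were not called at 2 h, and their effects at 12 h were -2.44, -2.20, 2.46 and 2.56. Without Akti1/2-treated array 1 at 2 h, Atf5 and Abtb1 were called lower at 2 h, Abtb1 also with the chip block. These 18 differences of effects passed the test under each alternative that gave a value. They were chosen as the largest called ones, so this is no separate support.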

How the results depend on the processing

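The comparison at 2 h gave 2103 genes, and 1121 in a fit of its own 4 arrays. Leaving out 1 array gave 1167 to 1616 genes there, 186 to 632 for the effect at 2 h minus that at 0 h, and 516 to 1292 for the effect at 2 h minus that at 6 h, which fell to 223 with only the arrays compared. The methods' J5 score, taken here between the groups at 2 h, exceeded 20 either way for 99 genes (78 higher, 21 lower). It has another scale and no replicate error, and the study took it against 0 h. The difference from 12 h moved by less than 1.5 times under each alternative. With the replicate block the 4 counts were 2067, 600, 879 and 2275, and no call of a named gene was lost or gained under that block.

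Of 151 named genes called at 2 h, 104 stayed called under every alternative run, 47 lost the call under at least 1, and 0 of them reversed. Genes that reversed had not been called. The Myc log2 difference at 2 h was 0.0005356 with arrays scaled to the same mean, and -0.30 to 0.00495 with 1 array left out. With 1 array left out, Stra6 was -0.32 to 0.197, Car12 -0.0038 to 0.0832 and Atf5 -1.22 to 0.209. The cause was not tested. Of 62 counts of list members, 52 moved by over 1.5 times under at least 1 alternative. Of the 11 counts of 10 or more, 4 never moved, so many of the larger list counts carry little precision as well as the small ones. Simulated log2 differences of 0.5, planted in genes above background on all arrays, were mostly missed with 2 arrays a group, where few genes differed. In the data, 575 genes with an absolute log2 difference under 0.5 were called.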
